A study of Arabidopsis thaliana with 3 samples.

Results

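The genes described here act in the synthesis of aliphatic glucosinolates, and 10 loci were listed for it. They were chosen by their pathway step with the differences between the transgenic lines and wild type already known, so those differences are given as a description, with no test. Each locus was looked up through a table that pairs array features with Entrez genes and a RefSeq table of locus tags. Of the 10 loci, 3 were paired with a feature among the 28785 on the array: AT2G25450, BCAT4 (AT3G19710) and UGT74B1 (AT1G24100), with 1 feature each. The other 7 loci, MAM1 (AT5G23010), IPMI2 (AT2G43100), IPMI1 (AT3G58990), IMD1 (AT5G14200), BAT5 (AT4G12030), CYP83A1 (AT4G13770) and FMO GS-OX1 (AT1G65860), had no paired feature in those tables and were not analysed here.

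Total RNA of rosette leaves from plants of the Columbia accession Col-0, aged 2 weeks, was measured on 3 arrays. There was 1 wild-type array and 1 array each for the transgenic plants with the numbers 41 and 45, named line 41 and line 45 below, both expressing AtMYB23SRDX, a fusion of the trichome regulator MYB23 with the SRDX repression domain, from the 35S promoter, which is active in most plant tissues. The labels do not say whether plants were pooled, and no growth condition or harvest time is given. Values are read as log2 expression. All p-values and standard errors (SE) below rest on the spread between line 41 and line 45, which may be technical. For each gene limma drew that spread toward the spread of the other tested features (1 residual against 6.76 prior degrees of freedom). An SE is thus not the gene's own spread. The lone wild-type array was assumed to vary like the lines.

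Aliphatic glucosinolates are sulphur-containing defence compounds of the cabbage family, stored in the plant and broken down by myrosinases when tissue is damaged. Their synthesis from methionine runs in stages. BCAT4 removes the amino group of methionine, the plastid transporter BAT5 carries the resulting keto acid, and a cycle of a methylthioalkylmalate synthase such as MAM1, an isopropylmalate isomerase (IPMI1 and IPMI2 are small subunits) and a dehydrogenase (IMD1) lengthens the chain. Cytochromes P450 of the CYP79F and CYP83A kind, glutathione transferases, a C-S lyase, the glucosyltransferases UGT74B1 and UGT74C1 and sulfotransferases then build the core. Finally the side chain is altered, by S-oxygenation through FMO GS-OX enzymes and by 2-oxoglutarate-dependent dioxygenases, among them AOP2, AOP3 and the product of AT2G25450, known as GSL-OH, which hydroxylates butenyl glucosinolate. The Col-0 accession is known to lack a functional AOP2 and hence to make few alkenyl glucosinolates, the substrates of GSL-OH.

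The measured locus of chain elongation was BCAT4. On the log2 scale wild type read 5.53, line 41 read 7.93 and line 45 read 7.28. Both lines lay above wild type, and line 41 above line 45. The difference from wild type was 2.40 in line 41 and 1.75 in line 45 on the log2 scale, and 2.07 over both lines (SD of the lines 0.46, n = 2). The wild-type value lay under 5.64, the 40th percentile of feature means, which served as the dim level because no detection call was used. With the wild-type side raised to that level, BCAT4 was at least 3.89-fold higher over the lines, at least 4.87-fold in line 41 and at least 3.10-fold in line 45. Such bounds, here and below, are for the values as measured. They take no account of error in the single arrays or of scaling.

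Core synthesis was represented by UGT74B1. On the log2 scale it read 5.41 for wild type, 6.55 for line 41 and 5.95 for line 45. Again both lines lay above wild type, but line 45 only by 0.54 on the log2 scale, against 1.15 in line 41. The mean difference was 0.84 (SD of the lines 0.43, n = 2). With wild type raised to the dim level the locus was at least 1.52-fold higher over the lines, at least 1.88-fold in line 41 and at least 1.23-fold in line 45.

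Side-chain modification was represented by AT2G25450, for which wild type read 5.54, line 41 read 10.52 and line 45 read 10.10 on the log2 scale. It was the locus with the greatest difference of the 3, 4.98 on the log2 scale in line 41 and 4.56 in line 45 (SD of the lines 0.29, n = 2). With wild type raised to the dim level it was at least 29.3-fold higher in line 41 and at least 22.0-fold in line 45.

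**Figure D1:**
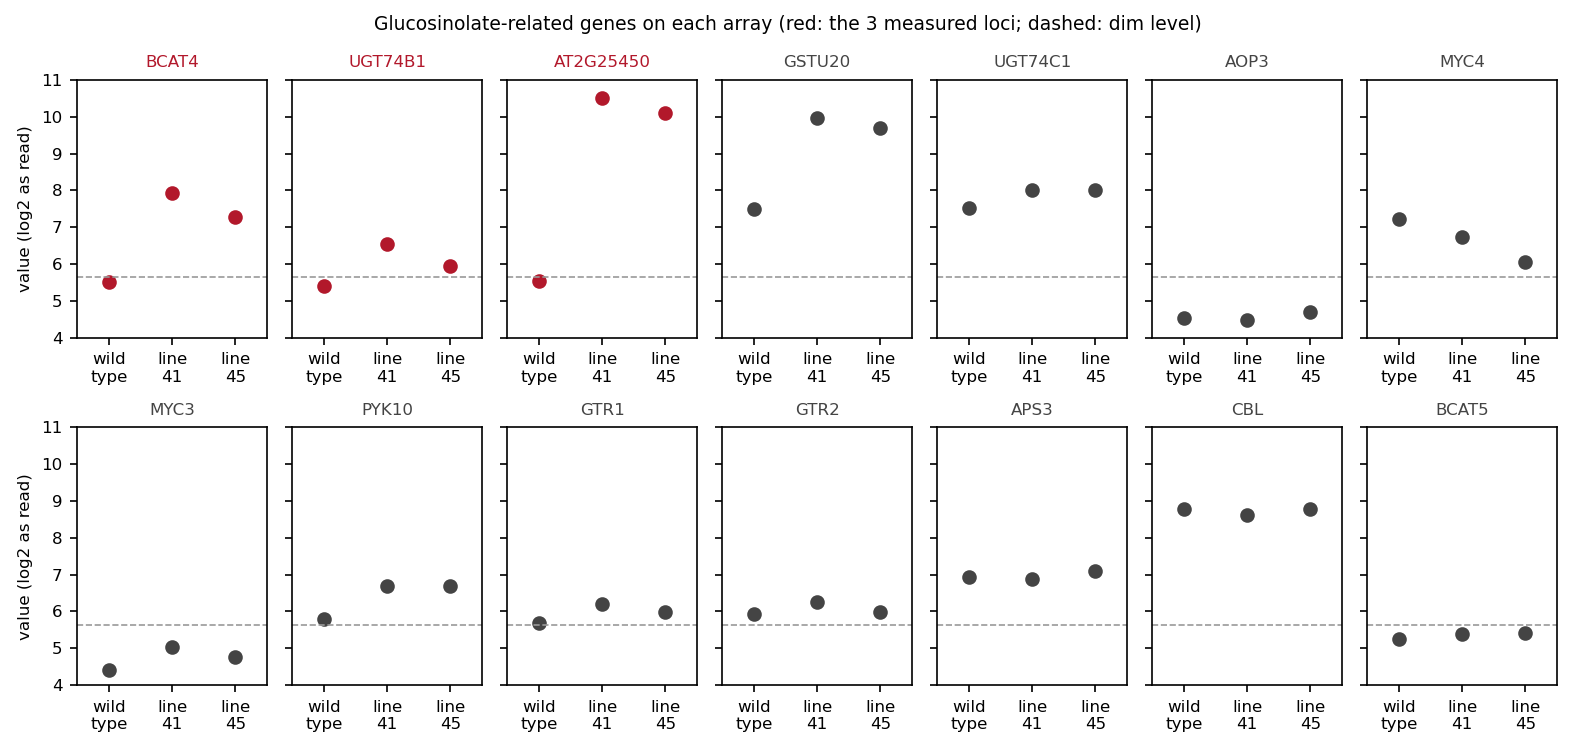
Value on each of the 3 arrays (y axis, read as log2) for the 3 measured loci, in red, and 11 other glucosinolate-related genes, in grey, with the dim level of 5.64 dashed and 1 point per array. The red loci lie under the dim level in wild type and above it in both lines, while AOP3, MYC3 and BCAT5 lie under it on every array.

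All 3 loci had wild-type values under the dim level, so each passed the filter on low values only through the lines and had to be higher there. Of the 16905 tested features, 945 lay under the dim level in wild type, and their median difference was 0.68 on the log2 scale for the same reason. Among these 945, 27.8% were at least 2-fold higher in both lines. Taken with no filter, 10766 features lay under the dim level in wild type, their median difference was -0.02, and 2.51% were at least 2-fold higher in both lines. AT2G25450 and BCAT4 were past 2-fold in both lines, as were 9.77% of all tested features, and UGT74B1 was past it in line 41 only. Nothing is read from that comparison, since the same contrast chose the loci. In bulk leaf RNA, more cells of a type and more RNA per cell cannot be told apart.

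The lines differed in the same direction at all 3 loci. Line 41 lay above line 45 by 0.65 on the log2 scale for BCAT4, by 0.61 for UGT74B1 and by 0.42 for AT2G25450. Each line had 1 array, so this difference has no test. As a yardstick, the 500 tested features nearest in mean signal were taken for each locus, and the middle 95% of their differences between the lines was noted. For UGT74B1 that range ran from -0.52 to 0.56, and 8 of the 500 features lay as far or further toward line 41. For BCAT4 the range was -0.56 to 0.75, with 16 of 500 as far or further, and for AT2G25450 -0.57 to 0.65, with 42 of 500. Thus UGT74B1 lay beyond the range of features of like signal, while BCAT4 and AT2G25450 lay inside it. Other genes of the pathway went both ways. MYC4, a regulator of the pathway, lay at 0.66 against a range of -0.53 to 0.61. GSTU20 at 0.28, GTR1 at 0.23 and GTR2 at 0.28 also leaned toward line 41, inside their ranges. APS3 at -0.22 and CBL at -0.16 leaned toward line 45, also inside their ranges. UGT74C1 at -0.02 and PYK10 at -0.01 were nearly equal in the lines. Of the markers, for which no such range was taken, RCA lay at 0.38, LHCB4.1 at 0.43 and LHCB4.2 at 0.75 (leaf). FAMA (guard cell) lay at -0.08 and EXPA7 (root, under the dim level) at -0.16. Over all tested features the median difference between the lines was -0.0023.

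**Figure D2:**
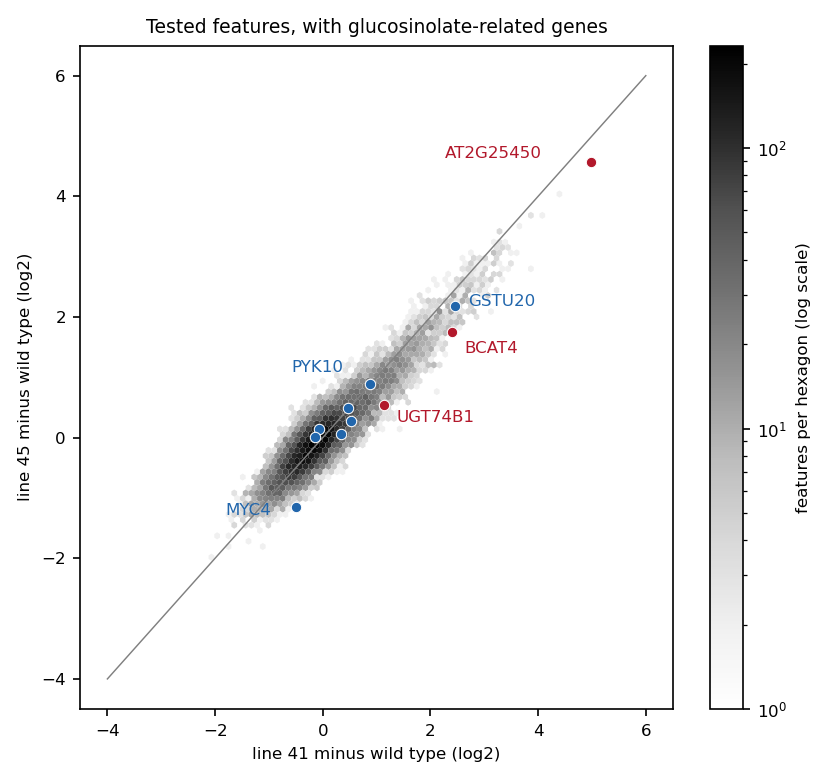
Difference from wild type in line 41 (x axis, log2) against that in line 45 (y axis, log2) for the 16905 tested features, as shaded hexagons, with the 3 measured loci in red, other pathway genes in blue and equal differences on the grey line. Both axes share the wild-type array, and the red loci lie under the grey line, toward line 41.

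To see the rest of the pathway, lists of 76 further loci were examined for chain elongation, core synthesis, side-chain modification, indolic glucosinolates, regulators, breakdown and transport, sulphur and methionine supply, and the related leucine pathway. Of these 76, 11 had a paired feature and 8 passed the dim filter, so most steps were not seen. The lists were chosen with earlier results of these data known, so limma's p-values for their genes are descriptive. By limma, 2 of the 8 rose, GSTU20 and PYK10, and 0 fell, against 14.6% of all tested features called higher and 7.27% called lower. At an unadjusted p under 0.05 the counts were 2 higher and 1 lower of the 8, while 35.2% of all tested features passed that looser threshold, so the 8 lay near the background. The median difference of the 8 was 0.30 on the log2 scale, and that of all tested features -0.04.

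GSTU20 (AT1G78370), a tau-class glutathione transferase linked to the core pathway of aliphatic glucosinolates, read 7.50 for wild type, 9.96 for line 41 and 9.69 for line 45 on the log2 scale. It lay above the dim level on all 3 arrays, and both lines lay well above wild type. It rose 5.01-fold (log2 difference 2.32 ± 0.24 SE, 2 lines and 1 wild-type array, limma's adjusted p = 0.00068), higher in 2 of 2 lines. UGT74C1 (AT2G31790), the second glucosyltransferase of the core pathway, read 7.52 for wild type, 8.0 for line 41 and 8.02 for line 45. Its log2 difference of 0.48 ± 0.22 SE did not pass (adjusted p = 0.164 by limma). The call of GSTU20 was lost without the dim filter (adjusted p = 0.105 by limma). In that setting limma called 0 of the 28124 features tested, with 7167 at an unadjusted p under 0.05.

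Side-chain enzymes other than AT2G25450 were represented by AOP3 (AT4G03050), whose product makes hydroxyalkyl glucosinolates. It read 4.55 for wild type, 4.48 for line 41 and 4.71 for line 45 on the log2 scale. These values lie at the dim end of every array, and those of wild type and line 41 lay under the floor of 4.68, so no fold is given. AOP1 (AT4G03070), the remaining measured gene of the AOP cluster, added after its values were seen, stood at 6.04, 5.87 and 6.27 in the same order.

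Among regulators, the list held MYB28, MYB29 and MYB76, the activators of aliphatic glucosinolate genes, and their bHLH partners MYC2, MYC3 and MYC4. MYC3 and MYC4 had a feature. MYC4 (AT4G17880) read 7.22 for wild type, 6.73 for line 41 and 6.07 for line 45 on the log2 scale. Both lines lay below wild type, by 0.49 and 1.15 on the log2 scale, where AT2G25450, BCAT4 and UGT74B1 lay above it. The mean log2 difference of -0.82 ± 0.29 SE did not pass (adjusted p = 0.0867 by limma). After quantile normalization MYC4 fell (log2 difference -0.90, adjusted p = 0.0309 by limma, in a range over settings up to 0.330). MYC3 (AT5G46760) read 4.40 for wild type, 5.03 for line 41 and 4.77 for line 45, all under the dim level, and was not tested.

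For breakdown and transport, PYK10 (AT3G09260), a beta-glucosidase of endoplasmic reticulum bodies that can act on indolic glucosinolates and is abundant in roots, read 5.80 for wild type and 6.69 for each line on the log2 scale. The lines were nearly equal, and PYK10 rose 1.85-fold (log2 difference 0.88 ± 0.20 SE, adjusted p = 0.0191 by limma, and 0.135 without the dim filter). Of 6 root markers listed, 1 had a feature, EXPA7 of root hairs, which read 5.37 for wild type, 4.96 for line 41 and 5.12 for line 45, under the dim level throughout. A part of root tissue in the PYK10 result was not tested, since that marker did not pass the dim filter. The glucosinolate transporter gene GTR1 (AT3G47960) read 5.70 for wild type, 6.21 for line 41 and 5.98 for line 45, and GTR2 (AT5G62680) read 5.92, 6.26 and 5.99 in the same order. Neither passed (adjusted p = 0.212 and 0.554 by limma).

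For the supply of sulphur and methionine, 2 of 15 listed loci were tested, and neither passed. APS3 (AT4G14680), an ATP sulfurylase that activates sulphate, read 6.94 for wild type, 6.87 for line 41 and 7.09 for line 45 (adjusted p = 0.926 by limma). APS4 (AT5G43780), a further ATP sulfurylase gene that was added after its values were seen and so has no test, stood at 6.31, 7.63 and 7.44 in the same order, above wild type by 1.33 in line 41 and 1.13 in line 45 on the log2 scale. CBL (AT3G57050), the cystathionine beta-lyase of methionine synthesis, had 3 features. The brightest read 8.77 for wild type, 8.62 for line 41 and 8.78 for line 45 (adjusted p = 0.870 by limma), and the others lay under the dim level.

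Relatives of the measured genes are given here as values with no test. All but GSTU20, tested above, and BCAT5, on the list of the leucine pathway, were added after their values were seen. Of 11 measured GSTU genes, 7 passed the dim filter. GSTU20 was the 1 of the 11 that lay at least 2-fold above wild type in both lines, as did 9.77% of all tested features. Nothing about the family is read from that count. The differences of GSTU20 were 2.46 in line 41 and 2.19 in line 45 on the log2 scale. GSTU27 followed at 0.78 and 0.60, and GSTU25 had the lowest mean difference, at -1.07 and -0.85. Of the neighbours of GSTU20 in its tandem cluster, GSTU22 stood at -0.01 and 0.06 and GSTU23 at -0.40 and -0.41, while GSTU21 lay under the dim level on all arrays. Of the UGT74 genes, UGT74F1 lay at -0.25 for line 41 and -0.34 for line 45, and UGT74D1, whose values of 5.57 and 5.62 for the lines lie under the dim level, did not pass the dim filter. BCAT5 (AT5G65780), a branched-chain aminotransferase related to BCAT4, read 5.25 for wild type, 5.38 for line 41 and 5.40 for line 45, under the dim level on all arrays. Close copies within these families can share signal on an array.

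**Figure D3:**
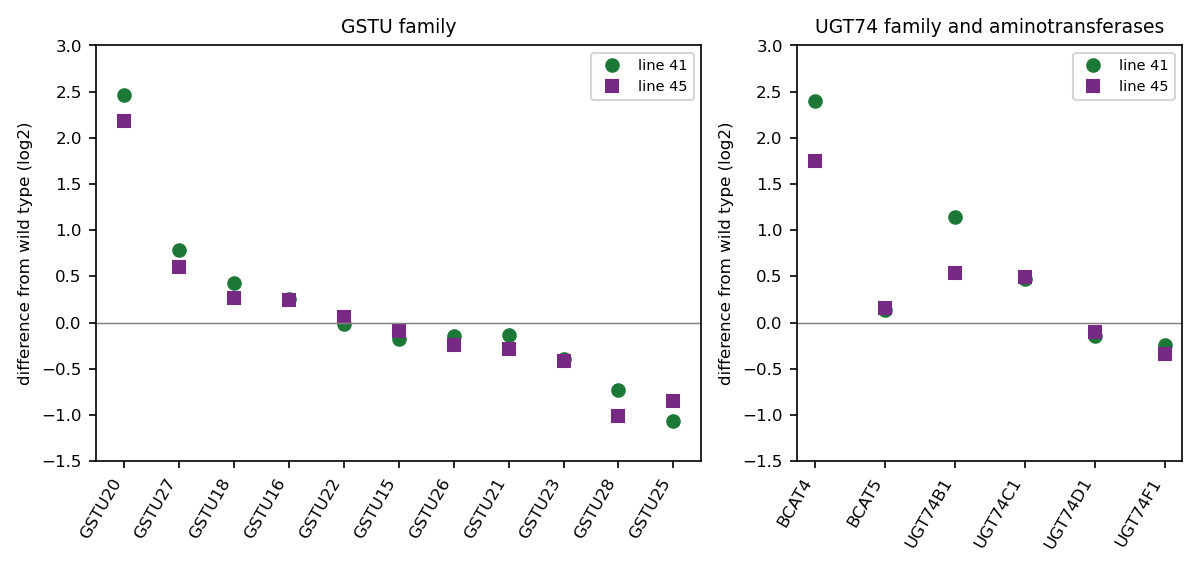
Difference from wild type (y axis, log2) in line 41 (circles) and line 45 (squares), 1 point per array, for 11 GSTU genes on the left and for BCAT4, BCAT5 and 4 UGT74 genes on the right. GSTU20 at 2.46 and 2.19 and BCAT4 at 2.40 and 1.75 stand above their measured relatives. Of the 11 GSTU genes 7 passed the dim filter, and BCAT5, the only measured relative of BCAT4, lies under the dim level on every array.

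Genes next to the measured loci were examined too, taking 4 protein-coding genes on each side in the order of the RefSeq table, a description also added after values were seen. Around AT2G25450, 4 of the 8 neighbours had a feature, and their mean log2 differences ran from -0.40 to 0.42, against 4.77 for AT2G25450. Around BCAT4 they ran from -0.11 to 0.90 over 4 neighbours, and around UGT74B1 from -0.60 to -0.07 over 4. Under the dim level on every array were 3 of the 4 measured neighbours of AT2G25450, 0 of 4 for BCAT4 and 1 of 4 for UGT74B1, and no direction is read from these dim features.

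The named genes outside the pathway lists whose pattern was most like that of AT2G25450, by Euclidean distance over the differences of line 41 and line 45 from wild type, among 9670 candidates, were GAPC2 (distance 0.64), THIC (1.08), AT4G31985 (1.29), AT3G07230 (1.34) and AT1G07920 (1.39). GAPC2 encodes a cytosolic glyceraldehyde-3-phosphate dehydrogenase and THIC an enzyme of thiamine synthesis. GAPC2 lay 4.62 above wild type in line 41 and 4.04 in line 45 on the log2 scale, against 4.98 and 4.56 for AT2G25450. The measure rests on 3 arrays, and both differences use the same wild-type array. AT2G25450 ranked 2 of 16905 tested features by mean difference, so the measure picks genes with other large differences. It does not show a shared pattern beyond that size.

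The measured leaf markers also lay above wild type in the lines. Of 16 leaf markers listed, 3 had a feature, and RCA, LHCB4.1 and LHCB4.2, for Rubisco activase and light-harvesting proteins, all rose, with log2 differences of 2.04 to 2.51 and limma's adjusted p between 0.000728 and 0.00204. These values are for the brightest feature of each gene, which read 9.53 to 11.90 in wild type. A second feature of LHCB4.2 rose by 3.62 on the log2 scale, and further features of RCA by 2.06 and 2.34. Of all tested features, 14.6% were called higher. The marker lists too were chosen with earlier results of these data known, so these p-values are descriptive. The guard-cell marker FAMA read 7.31 for wild type, 6.82 for line 41 and 6.89 for line 45 (adjusted p = 0.173 by limma). The flower, seed, vein and trichome markers listed had no paired feature. The upper end of the wild-type array was lower, with a 99th percentile of 9.62 against 10.63 in line 41 and 10.54 in line 45. The part of leaf-cell content and of this scale difference in the values of the glucosinolate loci was not tested. Nor was the part of the scale difference in the values of the leaf markers. With the 3 arrays given the same distribution by quantile normalization, the differences were 4.54 for AT2G25450, 2.08 for BCAT4 and 0.91 for UGT74B1 on the log2 scale.

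**Figure D4:**
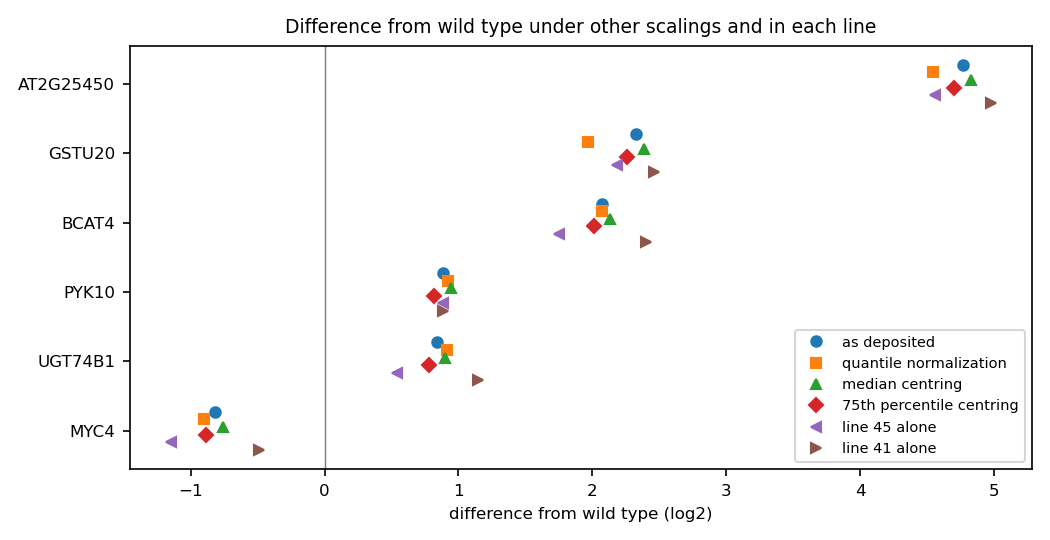
Difference from wild type (x axis, log2) of 6 genes as deposited, under 3 other scalings, and in each line alone. AT2G25450 stays between 4.54 and 4.98 and BCAT4 between 1.75 and 2.40, while MYC4 lies between -1.15 and -0.49.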

How the data were processed

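Each sample has 1 deposited value per feature. The values are read as log2, since the deposited numbers lie between 4.04 and 14.8 with none negative. No source used here names the log base, array platform, background correction or normalization, and another base would change every fold. Columns were mapped to samples by accession and grouped by title, and 17579 features were named by 1 gene, 17491 of them through the RefSeq table of TAIR10.1, which served for names and gene order, while 11206 stayed unnamed here.

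Values under the 5th percentile of all values (4.68) were raised to it. Features were kept when their mean reached the 40th percentile over all feature means (5.64), and the brightest feature stood for a gene, which left 16905. Values of list genes are printed as deposited. Both lines together were set against wild type with limma 3.58.1 under R 4.3.3 (eBayes with trend, two-sided, Benjamini-Hochberg over all 16905, threshold 0.05), with 1 residual degree of freedom. In simulated data for lines against wild type, 200 of 16905 features were changed. There limma found 62% of features shifted by 1 on the log2 scale, with 7 false calls, and 100% of those shifted by 2, again with 7. In the data, limma called 2468 features higher and 1229 lower. Across features, wild type correlated at 0.868 with line 41 and 0.888 with line 45, against 0.981 between the lines. A shift of the lone wild-type array cannot be told from a change in the lines. The simulated noise held no such shift, and its size followed mean signal alone, with no further variation between genes. The simulated recovery and false calls thus give no power or error rate for the measured arrays. Precision is limited by the number of arrays.

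The 10 loci and all lists were chosen with earlier results of these data known. The naming rule took the 10 loci, all other pathway-list genes past the dim filter, relatives in leucine synthesis and the 5 genes most like AT2G25450. Listed genes under the filter (AOP3, MYC3) and the measured tissue markers were named beyond it, after their values were seen. So were further relatives (AOP1, APS4, and the GSTU and UGT74 genes that the lists did not hold). No pair of arrays shared more than 24 identical values. Planned sequence comparisons were not made.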

Additional observations from a re-analysis of the deposited data

How the results depend on the processing

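The alternatives were scaling by quantile normalization, by the median or by the 75th percentile, leaving out the dim filter or setting it to the 60th percentile, leaving out the floor, the mean over the features of a gene, eBayes without trend, and each line alone. The differences of AT2G25450, BCAT4 and UGT74B1 from wild type, and between the lines, kept their direction under the 3 other scalings and moved by less than the spread between the lines or between like features. The filter, floor, feature-mean and trend settings cannot change these values, since each locus has 1 feature with no value under the floor, and using 1 line moves the mean by less than the SD of the lines by construction. UGT74B1, GTR1 and GTR2 had no value with the dim filter at the 60th percentile, which they did not pass. With each line alone AT2G25450 ranged from 4.56 to 4.98, BCAT4 from 1.75 to 2.40, UGT74B1 from 0.54 to 1.15 and the median of the other pathway genes from 0.22 to 0.41. No test was possible with 1 line, which leaves no residual degrees of freedom. Without the dim filter limma called 0 features higher and 0 lower, and 0 other pathway genes higher or lower. At an unadjusted p under 0.05 were 7167 of the 28124 features then tested and 3 of 11 other pathway genes, which are shares near each other. The prior degrees of freedom were then 1.42 against 6.76. After quantile normalization 2660 features were called lower against 1229, and 1 other pathway gene, MYC4, was called lower against 0. The difference of APS3 from wild type, 0.039, reversed to -0.037 after quantile normalization and to -0.026 after 75th percentile centring, and lay between -0.072 and 0.150 in single lines. That of CBL, -0.068, moved to -0.521 after quantile normalization (adjusted p = 0.102 by limma) and lay between -0.146 and 0.0092 in single lines. The cause was not tested. No paired analysis was possible because wild type and the lines share no replicate number.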
